A study of Danio rerio with 8 samples.

Results

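Enzymes that break down amino acids, together with those of the urea cycle, were examined in larval zebrafish livers, dissected at an age of 7 days. Members were rows of the count table picked by a rule on gene symbols. It was set with earlier results of these data known, so shares over the members are a description only. The rule took the enzymes of tyrosine, tryptophan, histidine, serine and glycine, branched-chain amino acid, proline, ornithine, lysine and cysteine breakdown. It also took the transaminases and the urea cycle. The symbol rule matched 55 rows, of which 53 had at least 1 count over the 8 libraries; these 53 are the members, out of 22936 named rows with counts. The rows of otc and got1l1 had 0 counts in every library, and amdhd1, sds, gcsh and ass1 had no row under those symbols and were not analysed here.

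The study compared wild-type (WT) larvae with lf:YAP larvae, a transgenic strain whose hepatocytes alone carry hyperactivated YAP, per the labels. YAP is the transcriptional effector of the Hippo pathway. Each of 4 libraries per group was made from total RNA of a pool of 10 livers, and larvae of both groups were raised in well plates and left untreated. The labels name neither the promoter nor the yap1 sequence of the transgene. Whether pools came from separate clutches is not stated, and p-values therefore reflect spread among the pools alone, part of which may be technical. In pooled tissue, fewer cells of a type and less RNA per cell cannot be told apart.

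The liver is the main site of amino acid breakdown in vertebrates. Transaminases move the amino group to glutamate or a keto acid, dedicated pathways open the carbon skeletons of tyrosine, tryptophan and histidine, and much of the glycine, serine, proline and ornithine traffic runs through mitochondria. In mammals the urea cycle turns the released ammonia into urea, whereas most adult bony fish, zebrafish included, release ammonia directly across the gills. The route in larvae of 7 days was not examined here.

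Totals on named genes ran from 2668432 to 3797709 counts per library, and the 3 rows with the most counts took 50.6% to 57.1% of them. The yap1 transcript stood at 23.7, 23.6, 16.7 and 20.9 CPM (the usual scaled count, here with library totals corrected by TMM factors) in WT replicates 1 to 4, and at 631, 1012, 299.6 and 1304 CPM in lf:YAP replicates 1 to 4. Every lf:YAP library was above every WT library, and replicate 3 was the lowest of its group. All 13 hepatocyte markers were detected and tested, and their summed level was 28509 to 39571 CPM in WT, against 18045 to 34184 CPM in lf:YAP. Of them 2 were called higher and 3 lower, where 11.1% of all genes tested were called higher and 10.5% lower. Biliary markers summed to 1437 to 1501 CPM in WT, against 2859 to 5241 CPM in lf:YAP. Of them 6 of 6 tested were called higher, against the same 11.1% of all genes. Exocrine pancreas markers, of which 0 of 15 tested were called, took 0.261% to 1.17% of counts in WT, against 0.390% to 1.41% for lf:YAP; WT replicate 4 and lf:YAP replicate 3 were the highest of their groups. Skeletal muscle markers took 0.118 ± 0.0333% of counts in WT and 0.0654 ± 0.0329% in lf:YAP, and intestine markers 0.368 ± 0.0566% and 0.312 ± 0.018% (SD, n = 4 each). Of 18 tested muscle markers 2 were called higher and 4 lower, and of 10 tested intestine markers 0 were higher and 4 lower. Of 9 marker lists, none passed adjustment for a difference in share (2-sided exact permutation test over the 8 libraries, smallest adjusted p = 0.129). The biliary list alone reached an unadjusted p of 0.0286, the smallest this design allows. Its groups did not overlap, at 0.129% to 0.138% of counts in WT and 0.249% to 0.669% in lf:YAP. At that limit a list cannot pass unless most of the 9 reach it, so the test could not decide. Endothelial, stellate, macrophage and red blood cell markers each summed to at most 189.9 CPM in any library, with the stellate marker pdgfrb and the globin hbaa1 at 0. Of 6 tested stellate markers 0 were called higher and 3 lower. No tested endothelial or red blood cell marker was called, and no macrophage marker had enough counts to be tested. The part of these cell types in the results below was not tested.

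Of the 53 members, 46 had enough counts to be tested, and 15 of these were lower and 1 was higher in lf:YAP at an adjusted p under 0.05 (edgeR quasi-likelihood test, adjusted over all 8369 genes tested); these 16 were 34.8% of the tested members, against 21.6% of all genes tested. Members called lower were 32.6% of those tested, against 10.5% of all genes tested, and the single member called higher was 2.17%, against 11.1% of all genes. The median of the log2 fold changes was -0.45 over the tested members and 0.01 over all genes tested. Below 0 lay 42 of 46 members, a side on which 49.1% of all genes lay. With libraries scaled by total counts alone 28 of 46 did, and 14 uncalled members, tat, hpda, kmo, hal and shmt1 among them, changed sign. The median over all genes was then 0.31, so the 49.1% does not apply to that setting. Relative to the median of all genes, the members' median was -0.53 there, against -0.46 with TMM factors. The groups did not overlap for 16 of 46 members, 34.8%, against 23.7% of all genes tested, and in 15 of the 16 the lf:YAP libraries were the lower. A member can pass the count filter through 1 group alone. Thus hibch and prodhb had 10 counts in 2 and 1 WT libraries and in all lf:YAP libraries. For hibadhb it was the reverse, with 10 counts in 4 WT and 2 lf:YAP libraries. None of these 3 was called in this fit. Among the called members, cthl had 10 counts in 4 WT and 3 lf:YAP libraries, so that it also passed through WT, and the others had them in all 8.

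**Figure D1:**
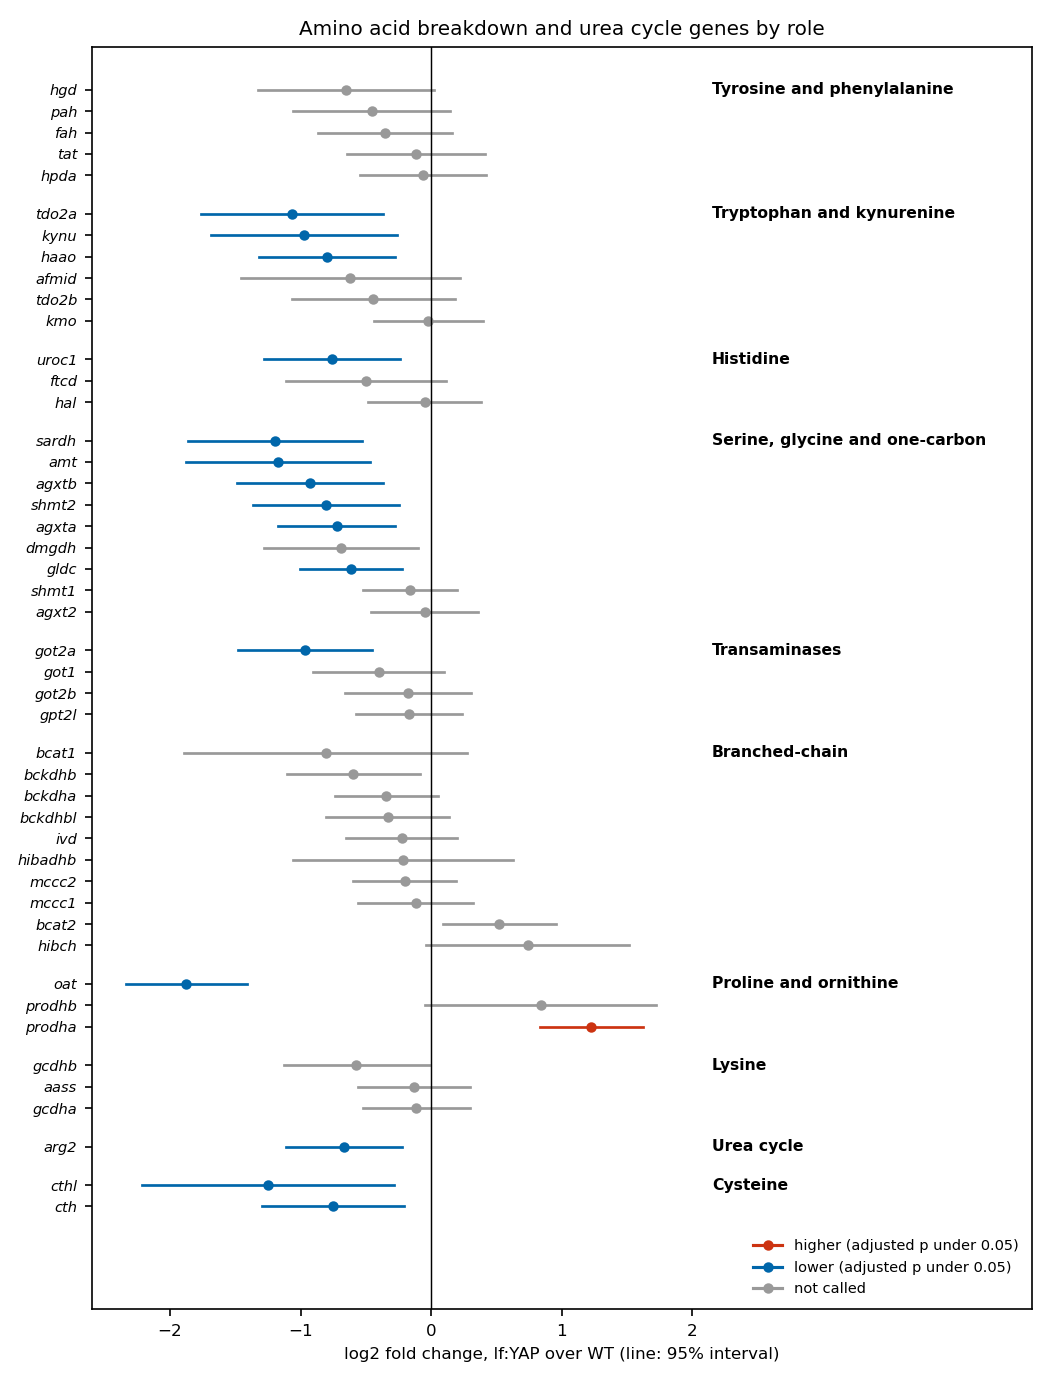
Log2 fold change (lf:YAP over WT) for the 46 tested members, by role, with 95% intervals on 6 residual degrees of freedom. Blue members were called lower, the red member higher, and grey members were not called; oat at -1.88 is the lowest and prodha at 1.23 the highest.

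Enzymes of proline and ornithine breakdown moved in opposite directions: oat had the steepest decrease among the members and prodha the single called increase. Of 3 tested, 1 was lower and 1 higher, where 10.5% and 11.1% of all genes tested were. The mitochondrial enzymes ornithine aminotransferase, encoded by oat, and proline dehydrogenase, encoded by prodha and prodhb, both deliver pyrroline-5-carboxylate, the intermediate that links ornithine, proline and glutamate. The level of oat was 202, 173, 222 and 180.1 CPM in WT replicates 1 to 4 and 54.9, 46.5, 69.4 and 41.8 CPM in lf:YAP replicates 1 to 4. All lf:YAP libraries lay far below all WT libraries, with replicate 3 the highest of them. The mean went from 194 ± 22.2 to 53.1 ± 12.1 CPM (SD, n = 4 each), a 3.67-fold decrease (log2 fold change -1.88 ± 0.19 SE, adjusted p = 5.58e-05).

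The prodha transcript moved the other way, from 124, 116, 102 and 98.0 CPM in WT to 298, 241, 232 and 257 CPM in lf:YAP. The groups did not overlap, and the lf:YAP libraries lay close together. Its mean rose 2.34-fold, from 109.9 ± 12.3 to 257 ± 29.2 CPM (log2 fold change 1.23 ± 0.16, adjusted p = 0.000297), which made it the only member called higher. Its paralog prodhb was rare, with a mean of 1.92 ± 0.732 CPM (WT) against 3.65 ± 0.631 CPM (lf:YAP), and did not pass (log2 fold change 0.84, 95% interval -0.05 to 1.73, adjusted p = 0.118). The count of prodha divided by that of oat, which does not depend on library scaling, was 0.616, 0.667, 0.458 and 0.544 in WT and 5.43, 5.19, 3.35 and 6.16 in lf:YAP; this ratio was formed after the values were seen and was not tested. Of the enzymes that use or make the same intermediate, none was called: aldh4a1, which oxidises it to glutamate, had -0.24 (95% interval -0.64 to 0.17), the reductase genes pycr1a, pycr1b and pycr3 had -0.51, -0.28 and -0.63, and aldh18a1, which makes it from glutamate, had 0.48 (-0.07 to 1.04), all as log2 fold changes.

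**Figure D2:**
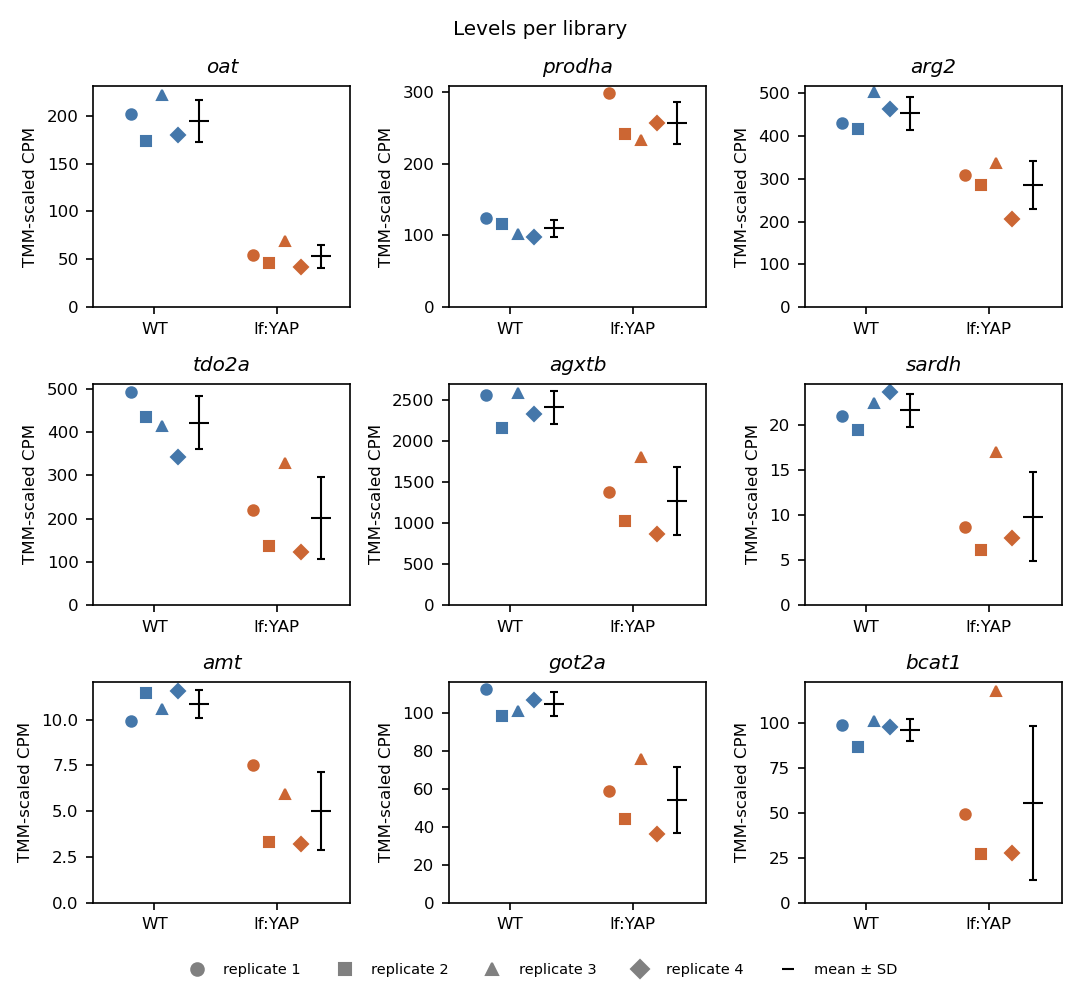
TMM-scaled CPM of 9 members in each library (WT blue, lf:YAP orange, the symbol gives the replicate number) with mean ± SD beside each group. In 8 panels the groups do not overlap; bcat1 was not called, and its lf:YAP replicate 3 at 118 CPM stands above all WT libraries while the other 3 lie at 27.4 to 49.5 CPM.

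With ass1 not measured, for want of a row under that symbol, the urea cycle was represented almost by arg2 alone. This gene encodes the mitochondrial arginase, which splits arginine into urea and ornithine, and its level was 431, 416, 503 and 464 CPM in WT, and in lf:YAP 310.0, 286, 338 and 207 CPM. The groups did not overlap, and lf:YAP replicate 4 was the lowest. It fell 1.59-fold, from 453 ± 38.4 to 285 ± 56.2 CPM (SD, n = 4 each; log2 fold change -0.67 ± 0.18 SE, adjusted p = 0.0193), a call lost without WT replicate 3 (-0.62, adjusted p = 0.0571) and with libraries scaled by total counts alone (-0.40, adjusted p = 0.0729). The cytosolic arginase gene arg1 had 0, 4, 0 and 1 counts in WT replicates 1 to 4 and 1, 0, 0 and 0 in lf:YAP. The mitochondrial carbamoyl phosphate synthase gene cps1, the entry step of the mammalian cycle, had 2 counts over all 8 libraries, 1 in WT replicate 1 and 1 in lf:YAP replicate 3. The ornithine carbamoyltransferase gene otc had 0 of 24072748 counts, which allows up to 0.125 CPM over the libraries together. The argininosuccinate lyase gene asl had 0, 4, 2 and 7 counts in WT and 4, 1, 3 and 11 in lf:YAP. None of these 4 passed the count filter, and with no filter arg1, asl and cps1 were not called (adjusted p of 0.396, 0.758 and 0.979); a difference between groups was not detectable at this depth. The limit from a count of 0 (3 counts) covers counting error only.

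Of the enzymes of serine, glycine and sarcosine handling, 6 of 9 tested members were lower and 0 were higher, against 10.5% and 11.1% of all genes tested, with a median of -0.72 on the log2 scale. The sarcosine dehydrogenase gene sardh, whose mitochondrial enzyme makes glycine from sarcosine, was at 21.0, 19.4, 22.4 and 23.6 CPM in WT, and in lf:YAP at 8.61, 6.10, 17.0 and 7.41 CPM. Replicate 3 stood near the WT range, and the other lf:YAP libraries well below it. It fell 2.29-fold (log2 fold change -1.20 ± 0.27, adjusted p = 0.00797). The amt gene, for the aminomethyltransferase of the glycine cleavage system, went from 9.92, 11.4, 10.6 and 11.5 CPM to 7.54, 3.30, 5.96 and 3.21 CPM, and the groups did not overlap (-1.17 ± 0.29, adjusted p = 0.0115). The glycine decarboxylase gene of the same complex, gldc, fell 1.53-fold, from 206 ± 32.1 CPM in WT to 134 ± 6.58 CPM in lf:YAP (adjusted p = 0.0159).

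Alanine-glyoxylate aminotransferase, which makes glycine from glyoxylate and so disposes of an oxalate precursor, is encoded here by agxta and agxtb. The level of agxtb was 2566, 2166, 2584 and 2338 CPM in WT, and in lf:YAP 1383, 1020.1, 1805 and 869.6 CPM, with no overlap and with replicates 3 and 1 the highest of lf:YAP. It fell 1.90-fold (log2 fold change -0.93 ± 0.23, adjusted p = 0.0119), and agxta fell 1.65-fold, from 416 ± 72.3 to 252 ± 33.6 CPM (adjusted p = 0.0135). The gene agxt2, alike in symbol, had 153 ± 23.5 and 148 ± 19.1 CPM (log2 fold change -0.05, 95% interval -0.46 to 0.36). The mitochondrial serine hydroxymethyltransferase gene shmt2 fell from 68.0 ± 8.17 to 39.2 ± 14.1 CPM (-0.81, adjusted p = 0.0231), while its cytosolic counterpart shmt1 had -0.16 (95% interval -0.52 to 0.20). The dimethylglycine dehydrogenase gene dmgdh had -0.69 with an adjusted p of 0.0587. The gldc call was lost without WT replicate 3 (log2 fold change -0.52, adjusted p = 0.0541), and that of shmt2 without WT replicate 1, lf:YAP replicate 1 or lf:YAP replicate 2 (adjusted p of 0.0545 to 0.064). With total counts alone the calls of agxta, gldc and shmt2 were lost. The serine dehydratase-like gene sdsl, which did not pass the count filter, had 9, 3, 7 and 21 counts in WT and 2, 1, 5 and 0 in lf:YAP.

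In the tryptophan pathway 3 of 6 tested members were lower and 0 were higher, beside the same 10.5% and 11.1%. Tryptophan dioxygenase, the first and rate-setting enzyme, is encoded by tdo2a and tdo2b. The level of tdo2a was 492, 435, 414 and 343 CPM in WT, and in lf:YAP 219.6, 135, 328 and 123 CPM. Replicate 3 came within a few percent of the lowest WT library, and replicates 2 and 4 were the lowest. It fell 2.09-fold (log2 fold change -1.07 ± 0.29, adjusted p = 0.0198). The level of tdo2b was 926, 863, 987 and 908 CPM in WT, and in lf:YAP 695, 597, 1048 and 374 CPM, where replicate 3 was above all WT libraries, and it was not called (-0.44, 95% interval -1.07 to 0.19). Further down the pathway, the kynureninase gene kynu went from 87.4, 62.2, 76.9 and 75.0 CPM to 47.4, 26.7, 60.0 and 21.3 CPM. Its groups did not overlap, though lf:YAP replicate 3 was close to WT replicate 2 (-0.97 ± 0.29, adjusted p = 0.0339). The haao gene, for the dioxygenase that opens the ring of hydroxyanthranilate, was at 98.1, 86.6, 69.1 and 65.3 CPM in WT, and in lf:YAP at 56.3, 49.05, 49.4 and 29.2 CPM, with no overlap (-0.80 ± 0.21, adjusted p = 0.0181). The kynurenine monooxygenase gene kmo, the step just before kynureninase, had 47.4 ± 5.07 and 46.9 ± 9.34 CPM (-0.02, 95% interval -0.44 to 0.39), and the formamidase gene afmid had -0.62 (-1.46 to 0.22). These calls were close to the threshold: tdo2a was lost without WT replicate 1, WT replicate 2 or lf:YAP replicate 2 (adjusted p of 0.05 to 0.0538), kynu without WT replicate 1, 3 or 4 or lf:YAP replicate 2 (0.0639 to 0.0871), and haao without WT replicate 1 or 2 (0.0512 and 0.0538) or with total counts alone (0.103).

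None of the 5 tested members of tyrosine and phenylalanine breakdown was called, where 21.6% of all genes tested were. The tyrosine aminotransferase gene tat took the most counts of all members, and its level was 4789.9, 4595, 5311 and 4055 CPM in WT, and in lf:YAP 4822, 3323, 5709.6 and 3466 CPM. The groups overlapped, with lf:YAP replicate 3 above all other libraries (log2 fold change -0.11, 95% interval -0.64 to 0.41). The hydroxyphenylpyruvate dioxygenase gene hpda, the next step, had 2709.6 ± 440.1 and 2597 ± 429 CPM (SD, n = 4 each; -0.06, -0.55 to 0.42). The phenylalanine hydroxylase gene pah, the homogentisate dioxygenase gene hgd and the fumarylacetoacetase gene fah had -0.46, -0.65 and -0.35, with adjusted p of 0.209, 0.115 and 0.252. The paralog hpdb did not pass the count filter, with 68 counts in WT, 38 of them in replicate 2, and 32 in lf:YAP.

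In histidine breakdown 1 of 3 tested members was called, 33.3% against 21.6% of all genes tested. The urocanate hydratase gene uroc1 was lower, at 503, 476, 494 and 322 CPM in WT, and in lf:YAP 283, 231, 348 and 199.9 CPM. The groups overlapped by 1 library each, WT replicate 4 falling below lf:YAP replicate 3. It fell 1.69-fold (log2 fold change -0.76 ± 0.21, adjusted p = 0.023), a call lost without WT replicate 1, 2 or 3 or lf:YAP replicate 2 or 4 (adjusted p of 0.0546 to 0.0642). The histidine ammonia-lyase gene hal, the step before it, had 166 ± 30.7 and 160.3 ± 19.9 CPM (-0.05, 95% interval -0.48 to 0.38), and the formiminotransferase gene ftcd, at the end of the pathway, had -0.50 (-1.11 to 0.11).

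Of 4 tested transaminase genes with got or gpt symbols only got2a, for a mitochondrial aspartate aminotransferase, was called. This is 25%, near the 21.6% of all genes tested that were called. Its level was 113, 98.4, 101 and 107 CPM in WT, and in lf:YAP 59.21, 44.5, 76.2 and 36.6 CPM, with no overlap and replicate 3 the highest of lf:YAP. It fell 1.95-fold (log2 fold change -0.96 ± 0.21, adjusted p = 0.00618). Its paralog got2b had 28.6 ± 7.21 and 25.2 ± 3.38 CPM (-0.18, 95% interval -0.66 to 0.30), and the cytosolic got1 had 398 ± 28.6 and 301 ± 91.0 CPM (-0.40, -0.90 to 0.10). The alanine aminotransferase-like gene gpt2l, with the most counts of the got and gpt genes, was at 532, 445, 515 and 431 CPM in WT, and in lf:YAP 444, 398, 494 and 372 CPM, overlapping ranges (-0.17, -0.58 to 0.23).

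Both genes of cystathionine gamma-lyase, which releases cysteine from cystathionine, were lower, where 10.5% of all genes tested were. The level of cth was 169, 145, 135 and 151 CPM in WT, and in lf:YAP 92.9, 69.4, 133 and 62.3 CPM, where replicate 3 nearly reached the lowest WT library (log2 fold change -0.75 ± 0.22, adjusted p = 0.0288). The rarer cthl was at 5.34, 9.53, 19.1 and 10.2 CPM in WT, and in lf:YAP 4.66, 2.29, 6.38 and 5.44 CPM, with overlap through WT replicate 1 (-1.25 ± 0.39, adjusted p = 0.0395). By symbol, 52 of the 53 members were found in RefSeq's table of genes for the assembly GRCz12tu. There cth and cthl are the only members that neighbour each other. Reads matching both may have been split between them, but their sequences were not compared and this was not tested. The cth call was lost without WT replicate 1, 2 or 4 or lf:YAP replicate 1, 2 or 4 (adjusted p of 0.0553 to 0.0838), that of cthl without WT replicate 2, 3 or 4 or lf:YAP replicate 1, 2 or 4 (0.064 to 0.124), and both with total counts alone; limma-voom did not call cthl either (adjusted p = 0.0514).

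Branched-chain and lysine breakdown held no called member, of 10 and 3 tested, where 21.6% of all genes tested were called. Of 10 tested branched-chain members, 8 had log2 fold changes below 0 and 2 above. The mitochondrial branched-chain aminotransferase gene bcat2 had 0.52 (95% interval 0.09 to 0.95), just outside the threshold at an adjusted p of 0.0515, and the subunit gene bckdhb of the branched-chain dehydrogenase complex had -0.59 (adjusted p = 0.0585). The isovaleryl-CoA dehydrogenase gene ivd, with the most counts of this role, was at 121, 115, 123 and 124 CPM in WT, and in lf:YAP 109, 102, 128 and 75.4 CPM, which overlapped (-0.22, -0.65 to 0.20). The cytosolic aminotransferase gene bcat1 stood at 98.8, 86.9, 101 and 97.7 CPM in WT, and in lf:YAP at 49.5, 27.4, 118 and 27.7 CPM. Replicate 3 alone lay above WT, and without it the log2 fold change went from -0.81 (adjusted p = 0.233) to -1.48 (adjusted p = 0.00015). Exocrine pancreas markers took 1.41% of the counts of that library, the highest share of all 8, and 0.261%, 0.418%, 0.716% and 1.17% of those of WT replicates 1 to 4; the part of this in the bcat1 level was not tested. The lysine pathway genes aass, gcdha and gcdhb had -0.13, -0.11 and -0.57, with gcdha at 130.5, 118, 128 and 127 CPM in WT, and in lf:YAP 117, 95.6, 148 and 105 CPM.

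On the TMM scale, the lf:YAP pools differed among themselves in a way shared by most of the lower members. The median level of the 15 lower members, as a percentage of each one's WT mean, was 62.0%, 42.4%, 74.5% and 36.03% in lf:YAP replicates 1 to 4. The order from highest to lowest was thus replicate 3, 1, 2 and 4, the reverse of the order of yap1. For 13 of the 15 lower members the library with the least yap1 had the highest lf:YAP level, and for 13 of the 15 the highest pair of lf:YAP values were in replicates 3 and 1; among all 875 genes called lower, these shares were 52.5% and 52.2%. These orders depend on the TMM scale. For gldc, replicate 3 was highest on that scale but had the fewest counts (374, 538, 331 and 507 in lf:YAP replicates 1 to 4). For cth, replicate 3 had the most counts as well (259, 273, 312 and 252). Totals of these libraries were 2668432, 3069996, 2703059 and 3170508 counts. How many of the 15 keep the order with library totals alone was not counted. With 4 pools, no correlation was computed. Biliary markers took 0.366%, 0.459%, 0.249% and 0.669% of the counts of lf:YAP replicates 1 to 4. This was the same order as yap1 and the reverse of that of the members on the TMM scale. Exocrine pancreas markers took 0.390%, 0.454%, 1.41% and 0.402%, with replicate 3 alone standing apart, and the TMM factors were 1.04, 1.28, 0.869 and 1.28. The part of these in the pattern was not tested. Without lf:YAP replicate 3, the members called lower went from 15 to 23 and those called higher from 1 to 2, where 14.6% and 13.6% of all genes tested were called lower and higher; bcat1, dmgdh, ftcd, gcdhb, got1, hgd, pah and tdo2b joined the lower members and bcat2 the higher, and all 16 calls remained. Leaving out WT replicate 4 as well gave 24 lower, against 13.7% of all genes, and 1 higher, against 13.3%. Without lf:YAP replicate 2, or without WT replicate 1, 9 were lower in place of 15, against 7.02% and 8.42% of all genes, and 1 and 2 were higher, against 8.19% and 9.51%. With libraries scaled by total counts alone, 8 members were lower and 4 higher, against 6.23% and 18.4% of all genes. The added higher members were bcat2, hibch and prodhb, of which hibch and prodhb passed the count filter through lf:YAP, where they were high. With no filter on low counts, 19 were lower and 2 higher, against 6.3% and 6.15%.

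**Figure D3:**
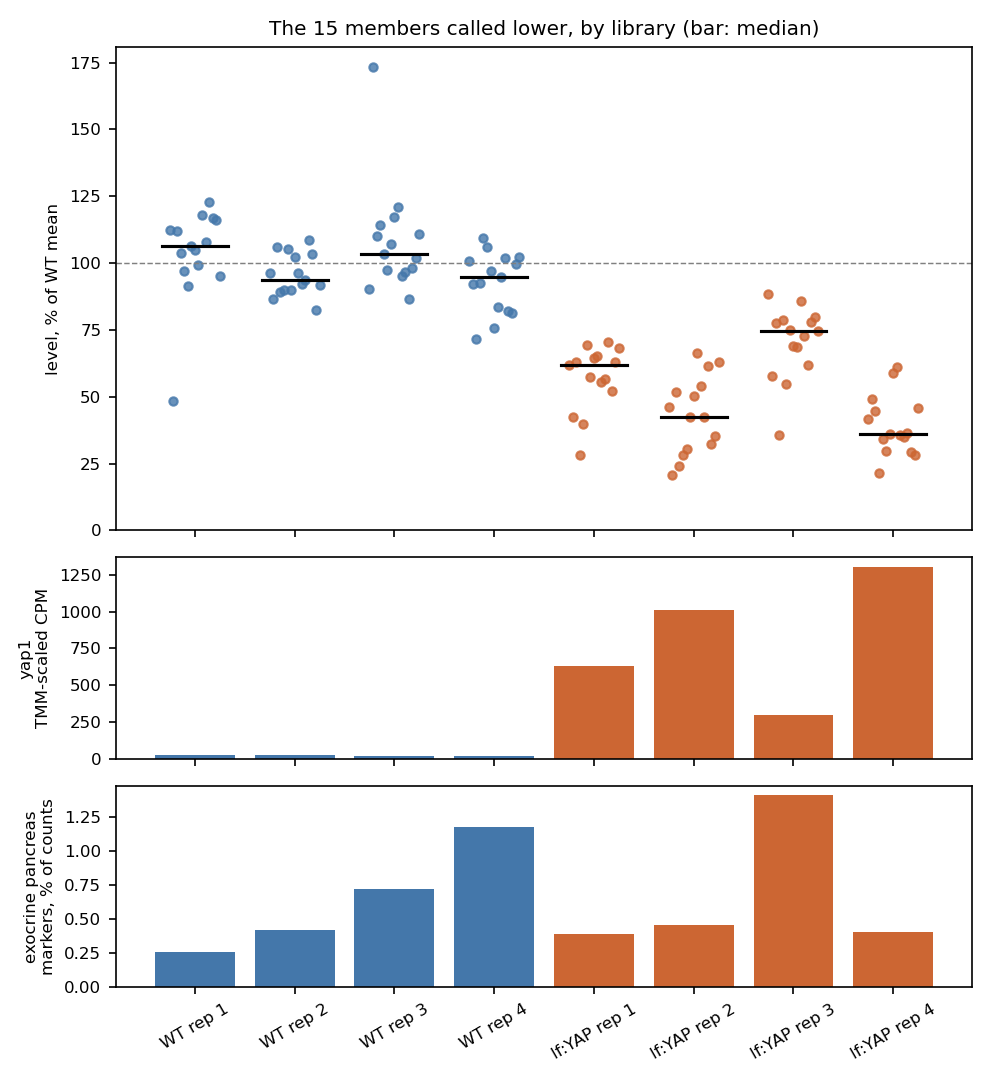
Level of the 15 members called lower as a percentage of each one's WT mean (upper panel, black bar the median), yap1 level (middle) and share of counts on exocrine pancreas markers (lower), by library. On the TMM scale, the medians of 62.0%, 42.4%, 74.5% and 36.03% in lf:YAP replicates 1 to 4 run in the reverse order of yap1.

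Ratios of counts between members with a shared symbol stem, which do not depend on library scaling, were compared for 13 pairs of tested members. Pairs were grouped by symbol, and a shared stem does not establish a gene family, as for agxt2 beside agxta and agxtb. The pairs were formed after the data were seen, and some share a member. In 5 pairs the groups did not overlap. Each had an unadjusted p of 0.0286 by the 2-sided exact permutation test, the smallest that 4 against 4 libraries allow, and an adjusted p of 0.0743 over the 13 pairs. None passed, but at that limit a pair cannot pass unless most of the 13 reach it, so the test could not decide. The ratio of shmt1 to shmt2 was 1.33, 1.67, 1.65 and 1.55 in WT and 2.52, 2.21, 1.81 and 3.82 in lf:YAP, a mean log2 difference of 0.69. The ratio of got1 to got2a was 3.36, 3.75, 4.27 and 3.83 in WT and 4.92, 5.71, 5.67 and 6.22 in lf:YAP, a difference of 0.57. The ratio of tdo2a to tdo2b went from between 0.378 and 0.532 in WT to between 0.227 and 0.329 in lf:YAP (-0.63), and the ratios of agxt2 to agxta and to agxtb were higher by 0.67 and 0.93 (log2). The other 8 pairs overlapped; the widest mean difference among them was that of bcat1 to bcat2, -1.60, where lf:YAP replicate 3 lay within the WT range. With any 1 library left out, the mean differences of the 5 pairs kept their sign.

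**Figure D4:**
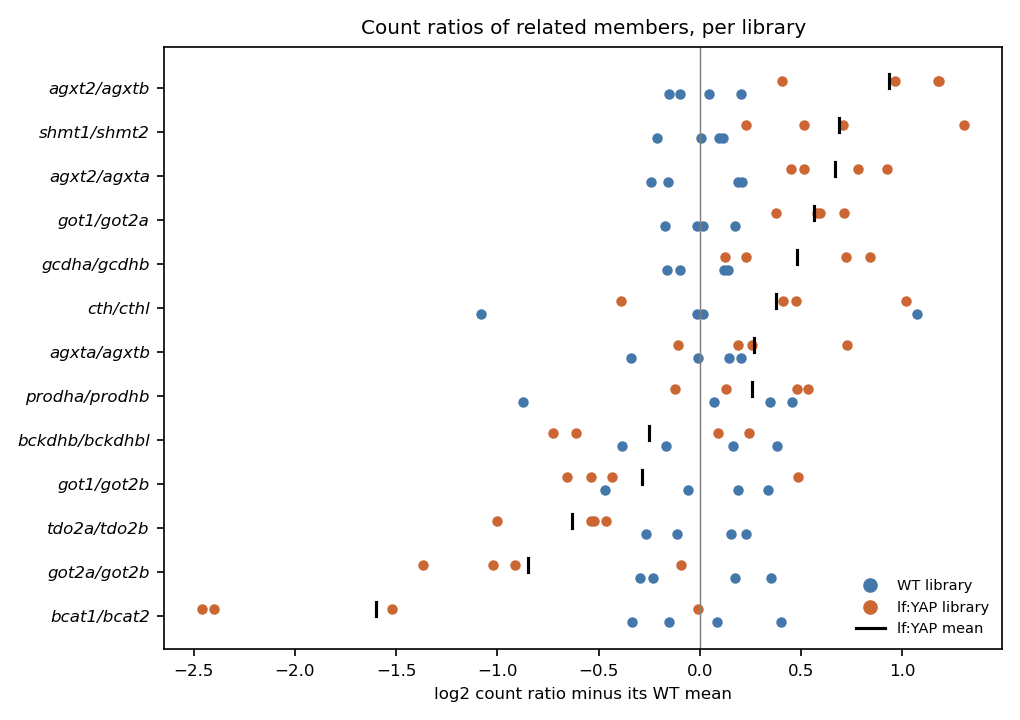
Log2 ratio of the counts of members with a shared symbol stem in each library (WT blue, lf:YAP orange), centred on the WT mean of the pair, with the lf:YAP mean as a black bar. In 5 pairs, from agxt2/agxtb at 0.93 to tdo2a/tdo2b at -0.63, no lf:YAP library overlaps WT.

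In the authors' deposited table, 12 of the 53 members were lower at an adjusted p under 0.05, and 1 was higher. The shares over all 28599 named rows of that table were 2.91% and 2.97%. Only 22936 of those rows had at least 1 count, as every member had. All 13 were also called here, and the 3 called here alone were cthl, haao and kynu, at adjusted p of 0.177, 0.0551 and 0.0501 in the authors' deposited table.

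Other genes of the same and adjoining pathways were examined in the same fit. They came from a list of 93 chosen for their place in the pathways, with earlier results of these data known, so their shares are a description only. Of 61 tested, 19 were lower and 4 higher, which is 31.1% and 6.56% against 10.5% and 11.1% of all genes tested, and their median was -0.44 on the log2 scale. The steepest fall was that of gatm, which makes guanidinoacetate, the precursor of creatine, from arginine and glycine. Its level was 192, 157, 135 and 79.6 CPM in WT, and in lf:YAP 17.9, 7.88, 20.0 and 14.6 CPM, a 9.45-fold decrease with no overlap (-3.24 ± 0.33, adjusted p = 0.000112), and the next enzyme of creatine synthesis, encoded by gamt, fell by 1.14 on the log2 scale (adjusted p = 0.0404).

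The folate dehydrogenase gene aldh1l1, which oxidises formyl groups of folate, fell from 529, 664, 983 and 658 CPM to 166, 170.3, 199 and 117 CPM, again without overlap (-2.12 ± 0.23, adjusted p = 8.46e-05). The D-amino acid oxidase gene dao.2 rose from 3.43, 0.381, 3.66 and 2.75 CPM to 41.3, 43.5, 23.0 and 53.1 CPM (3.97 ± 0.40, adjusted p = 8.65e-05); it had 10 counts in 1 WT library and in 4 lf:YAP libraries, so that it passed the count filter through lf:YAP, where it was high. The methionine adenosyltransferase gene mat1a was at 652, 555, 617 and 511 CPM in WT, and in lf:YAP 214, 205, 262 and 186 CPM, and the groups did not overlap (-1.43 ± 0.17, adjusted p = 0.000163). The paralogous glutamine synthetase genes moved apart, glula by -1.61 and glulb by 1.18, as did the count of glulb divided by that of glula, from 0.358 to 0.482 in WT to 2.37 to 3.87 in lf:YAP, which was not tested. The other higher genes were csad (1.47), for an enzyme of taurine synthesis, and glud1a (0.62), for a glutamate dehydrogenase. Near the called members, the lower genes included glyctk (-1.84) and grhprb (-0.80) of glyoxylate and glycerate handling, ido1 (-1.78) of the tryptophan pathway, gcat (-0.83) of threonine breakdown, dhtkd1 (-1.02) of lysine breakdown, and gch1 (-0.93), which supplies the cofactor of phenylalanine hydroxylase. The remaining lower genes were aspg (-1.02), odc1 (-0.97), gls2b (-0.80), ahcy (-0.77), pccb (-0.65), mthfd1b (-0.59), dlst (-0.50) and cbsa (-0.49). Of the lower genes, ido1 and odc1 passed the count filter through WT, with 10 counts in 4 WT libraries each but in 1 and 3 lf:YAP libraries. Of these 23 calls, 12 held under all 17 alternative settings, and those of gcat, gls2b, cbsa, pccb, ahcy, dlst, glud1a, gamt, grhprb, mthfd1b and odc1 did not. Without WT replicate 1, 2 or 3, or without lf:YAP replicate 2 or 4, 10 to 12 were lower in place of 19. The share of all genes called lower fell too in these fits, to 7.02% to 8.42% from 10.5%.

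**Figure D5:**
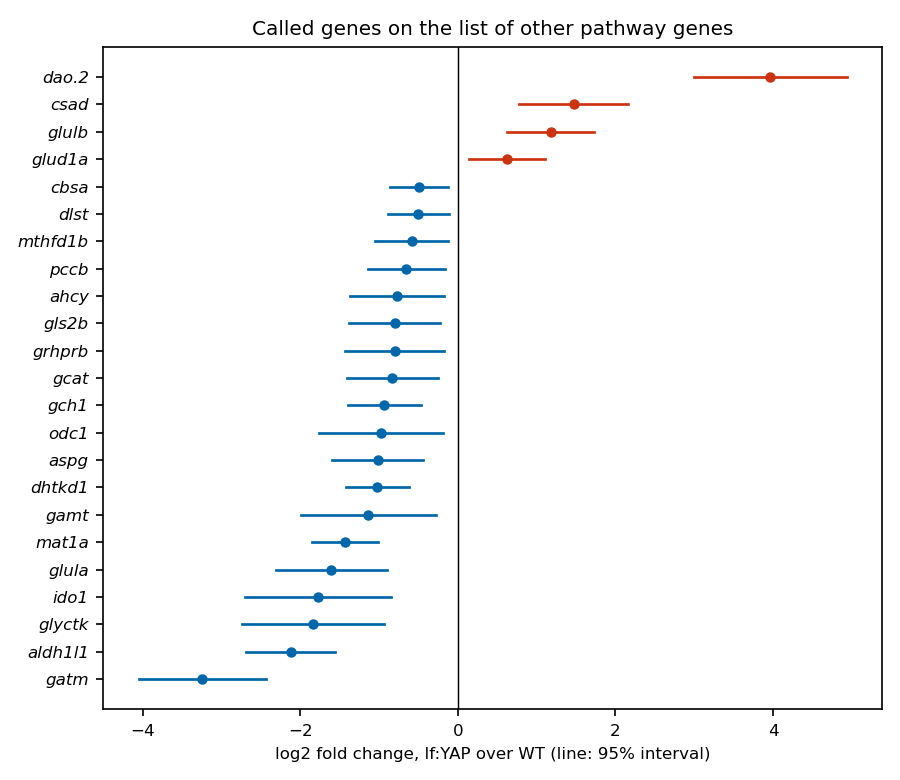
Log2 fold change (lf:YAP over WT), with 95% intervals, for the 23 called genes on the list of other pathway genes. The 4 red genes were higher and the 19 blue genes lower, from dao.2 at 3.97 to gatm at -3.24.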

How the data were processed

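The library kit was a stranded one for total RNA, per the labels' protocols. The submitters' processing notes name the build danRer10 and the tools limma 3.40.6, featureCounts 1.6.0, HISAT2 2.1.0 and cutadapt 1.16, without roles. Neither the annotation nor the strand setting of the counting is stated there, so reads of a gene and of one overlapping it cannot be told apart. The authors deposited a raw count and a CPM value (count over the column total) per gene and library, and, per the file headers, a log2 fold change and, for each gene, p-values before and after adjustment. Of 35117 rows, 6518 had no gene name; they held 0.657% to 2.55% of counts and were left out. The file pairs symbols with no identifiers or coordinates.

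The deposited counts were fitted in R 4.3.3 with edgeR 4.0.16: filterByExpr by group, TMM factors, robust quasi-likelihood test, 2-sided, intercept and group only, Benjamini-Hochberg adjustment over all genes tested. The standard error is the log2 fold change over the square root of F. The 95% intervals use 6 residual degrees of freedom, whereas the test also borrows degrees of freedom across genes. The intervals are thus wider than the test implies. For prodhb, hibch and hgd they include 0, at unadjusted p of 0.0377, 0.0369 and 0.0363 by the quasi-likelihood test. DESeq2 1.42.0, limma-voom (limma 3.58.1), other scalings and filters, a replicate block and left-out libraries were alternatives. Scripts were tested on simulated data. Replicate numbers did not pair the libraries (correlations of -0.05 to 0.04 between same-numbered libraries). No pair of libraries of the same group agreed within sampling noise, and pairs across groups were not checked.

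Members and lists were chosen with earlier results of these data known. Every called member is named; values by library are given for up to 3 called members of a role with the smallest p, its most counted member and the urea cycle, and for bcat1 and the ratios after their values were seen. Marker lists covered hepatocytes, exocrine pancreas, skeletal muscle, intestine, biliary, red blood, endothelial, stellate and macrophage cells.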

Additional observations from a re-analysis of the deposited data

Results flagged for a closer look

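Among 92 groups of 4 libraries (46 tested members in each group), 4 held a library far from the other 3 by Dixon's 95% criterion for the gap over the range, which chance flags in about 1 of 20 groups. In WT, uroc1 was at 322 CPM in replicate 4 against 476 to 503 CPM in the others. The prodhb level was 3.02 CPM in WT replicate 4 against 1.53 to 1.63 CPM. For shmt2, WT replicate 1 had 80.1 CPM and the other WT libraries 62.5 to 64.7 CPM. In lf:YAP, kmo was at 60.8 CPM in replicate 3 and at 41.4 to 42.7 CPM in the others.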

How the results depend on the processing

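Of the 16 member calls, those of oat, prodha, sardh, amt, agxtb and got2a held under all 17 alternatives, and no called member changed sign under any. The count of lower members was 15 and of higher members 1. With total counts alone, which shifted the median over all genes from 0.01 to 0.31 (log2), 8 members were lower and 4 higher. In that setting 12 other pathway genes were lower, and 6.23% of all genes were lower and 18.4% higher. The median over members was -0.22, and 14 uncalled members changed sign. Relative to the median of all genes, the members' median was then -0.53, against -0.46 with TMM factors. Higher members numbered 2 with limma-voom, where 11% of all genes were higher, and 2 with no filter, where 6.15% were. No filter also gave 8 higher other pathway genes in place of 4. With 1 library left out, 9 to 23 members were lower and 1 to 2 higher (7.02% to 14.6% and 8.19% to 13.6% of all genes), their median was -0.63 to -0.37, and 10 to 28 other pathway genes were lower and 3 to 5 higher. Without WT replicate 4 and lf:YAP replicate 3 together, 24 members were lower, with a median of -0.69. The replicate block, on numbers that did not pair the libraries, gave 17 lower and 1 higher, all 16 calls among them, against 9.92% and 10.2% of all genes. The log2 ratio of prodha to prodhb, 0.26, was -0.035 to 0.41 with 1 library left out, a check added after the data were seen; the other 12 ratios kept their sign. With 3 against 4 libraries, the exact permutation test cannot pass. Of the 7 members below the count filter, sdsl (-2.29, adjusted p = 0.00302) and hpdb (-1.17, 0.0298) were lower with no filter; with at least 1 CPM in 4 libraries sdsl was (-2.31, 0.0449; 7.92% of all genes were lower) and hpdb was not (0.265).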

Other observations

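Some genes on the list of other pathway genes were too rare for the test but stood apart between groups, and were named after their values were seen. The phosphoserine aminotransferase gene psat1, of serine synthesis, was at 0.763, 0.763, 0 and 1.92 CPM in WT and 5.02, 10.9, 2.55 and 15.6 CPM in lf:YAP replicates 1 to 4, lowest in replicate 3 and highest in replicate 4, the same order as yap1. The D-amino acid oxidase genes dao.1 and dao.3 had 0 counts in every WT library, and 9 and 14 counts in all over the lf:YAP libraries. On the lower side, the aromatic amino acid decarboxylase gene ddc had 76 counts over the WT libraries, against 16 over the lf:YAP ones. Likewise asrgl1 had 27 counts against 6, and slc25a15a had 19 against 5, and in neither did the groups overlap in CPM.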
